A study of Mus musculus with 3 samples.

Results

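Hemoglobin-rich barcodes of the embryonic soft palate were taken as erythroid cells, and 128 of the 14049 barcodes that passed the limits on detected genes and mitochondrial RNA fell in this class. A barcode was a member when it held at least 500 detected genes, at most 10% of its UMIs from mitochondrial genes and at least 30% of its UMIs from 7 globin genes, Hba-a1, Hba-a2, Hba-x, Hbb-bs, Hbb-bt, Hbb-bh1 and Hbb-y. A UMI, or unique molecular identifier, tags 1 captured transcript. The members were thus chosen by measured values, and their globin share is given as a description only. The tissue was the rear part of the palate of E14.5 C57BL/6 embryos. A pair of libraries were controls and 1 was Osr2-Cre;Alk5fl/fl, in which Osr2-Cre recombines the floxed Alk5 gene (Tgfbr1, a TGF-β receptor) in the palatal mesenchyme. The labels name the controls only as control. The study gives its control soft palates as Tgfbr1fl/fl or Tgfbr1fl/+, and which of these a library held, and how many embryos entered it, is not given in the sources used here. The genotypes could not be tested against each other, since the mutant had 1 library, and all intervals below are 95% intervals that cover counting error only.

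Control 1 held 60 members among 2117 kept barcodes, or 2.83% (exact Clopper-Pearson interval 2.17 to 3.63). Control 2 held 15 among 3821, or 0.393% (0.220 to 0.647). The mutant held 53 among 8111, or 0.653% (0.490 to 0.854). The control libraries thus lay on both sides of the mutant, and the intervals of the controls did not overlap each other. With a minimum of 200 genes the shares were 21.7%, 2.20% and 1.42%, and the mutant then lay below both controls. The libraries held 22624711, 27814907 and 63505144 UMIs in 2816, 4067 and 8690 barcodes, and kept barcodes had a median of 8238, 5286 and 5272 UMIs. The count profiles of both controls, compared over 17020 genes, differed by more than counting error allows, with a chi-square of 51.7 for each degree of freedom. This value sets separate libraries against counting error alone, so nothing is concluded from it. Control 1 and control 2 shared 18 barcode sequences, control 1 and the mutant 34, and control 2 and the mutant 49, but no member barcode was a member in another library.

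Globin genes lie in a pair of clusters, and in development the red cell changes which of them it transcribes. Primitive erythroid cells, made in the yolk sac, use Hba-x (ζ) with Hbb-y (εy) and Hbb-bh1 (βh1), and later carry rising amounts of adult α-globin. Definitive cells, made at this stage in the fetal liver, use Hba-a1 and Hba-a2 with the adult β-globins Hbb-bs and Hbb-bt, and both kinds circulate in the midgestation embryo and reach every tissue with its blood.

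The α-like genes lie on chromosome 11 of GRCm38, with Hba-x at chr11:32276400-32278116, Hba-a1 at chr11:32283511-32284465 and Hba-a2 at chr11:32296489-32297298, all on the plus strand. The β-like genes lie on the minus strand of chromosome 7, with Hbb-bt at chr7:103812524-103813996, Hbb-bs at chr7:103826534-103828096, Hbb-bh1 at chr7:103841637-103843164 and Hbb-y at chr7:103851749-103853216. All 7 are protein coding. The 120 bases before the RefSeq start sites are shown for 5 of them, since the members fell apart by which of these genes they used. The gene spans above reach upstream of these starts, so each window lies wholly or partly inside the span of its gene. The sequences are from RefSeq on GRCm38.p6, given 5′ to 3′ on the strand of the gene, at chr11:32276480-32276599 for Hba-x, chr11:32283552-32283671 for Hba-a1, chr7:103853208-103853327 for Hbb-y, chr7:103827929-103828048 for Hbb-bs and chr7:103813924-103814043 for Hbb-bt. Capitals mark 4 motifs. CACCC, searched on both strands, is the first and CCAAT, searched likewise, the second. The other 2 are TGATAA, searched on both strands, and TATAA, searched on the strand of the gene alone.
Hba-x: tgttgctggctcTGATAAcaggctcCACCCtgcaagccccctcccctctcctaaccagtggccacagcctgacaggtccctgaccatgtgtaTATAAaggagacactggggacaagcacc
Hba-a1: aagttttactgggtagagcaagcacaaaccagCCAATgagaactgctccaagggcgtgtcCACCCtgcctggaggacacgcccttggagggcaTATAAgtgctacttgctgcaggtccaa
Hbb-y: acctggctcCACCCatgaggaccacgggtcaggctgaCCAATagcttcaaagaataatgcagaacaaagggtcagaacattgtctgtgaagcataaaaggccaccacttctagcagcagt
Hbb-bs: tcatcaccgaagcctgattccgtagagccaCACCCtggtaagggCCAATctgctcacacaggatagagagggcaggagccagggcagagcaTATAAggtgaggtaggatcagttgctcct
Hbb-bt: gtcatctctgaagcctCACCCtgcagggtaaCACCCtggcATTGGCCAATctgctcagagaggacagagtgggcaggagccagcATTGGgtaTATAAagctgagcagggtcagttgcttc

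The window of Hba-a2 shared a run of 117 bases with that of Hba-a1 and is not printed. CACCC, the core letters of the box known to be bound by KLF1, was found in all of these windows, with 2 matches in Hbb-bt, and 31.71% of the 32851 promoter windows of the same length held it. CCAAT, the CCAAT box, was found in the windows of all but Hba-x and in 21.29% of all windows. In Hbb-bt it occurs 3 times, of which 2 are on the opposite strand (ATTGG), and the first pair abut. TGATAA, which is a motif of the GATA factors, was found in Hba-x and in 3.55% of all windows, the other motif of these factors searched, AGATAA, in none of these genes and in 4.36% of all windows, and TATAA in all but Hbb-y and in 8.53% of all windows. These matches are descriptions of letters and not binding sites.

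The members fell into a pair of distinct kinds by the embryonic share of their β-like UMIs, that is Hbb-y plus Hbb-bh1 over all 4 β-like genes. Of the 128 members, 57 took at least 50% of their β-like UMIs from the embryonic genes (embryonic-rich) and 71 took less (adult-rich), and 3 members lay between 10% and 80%. Among all 1384 barcodes with at least 30% globin UMIs, whatever their number of genes, 11 lay between these values. Embryonic-rich members numbered 45 of 60 in control 1 (75%, exact interval 62.1 to 85.3) and 0 of 15 in control 2 (exact interval up to 21.8%, and up to 20% by the limit of 3 counts that a count of 0 allows). Of the 53 mutant members 12 were embryonic-rich (22.6%, 12.3 to 36.2). The gap between the controls was wider than that between the mutant and either of them. This order rested on the limits, since with a minimum of 200 genes the shares of control 1, control 2 and the mutant were 21.1%, 12.8% and 36.8%, and with a globin limit of 50% that of control 1 fell to 12.5%. Kinds were cut from these shares, so their separation in the genes of this ratio is not a finding of its own.

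**Figure D1:**
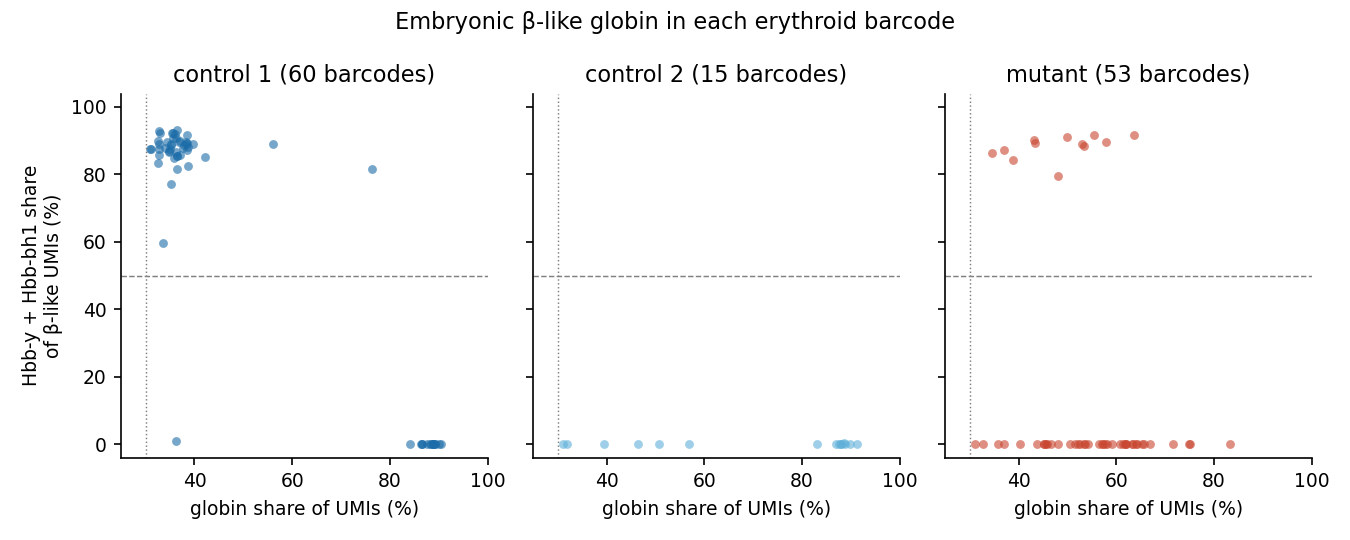
Share of β-like globin UMIs from Hbb-y and Hbb-bh1 (vertical axis, %) against the share of all UMIs from the 7 globins (horizontal axis, %), 1 point per member barcode, by library. The dotted line is the 30% limit of the class and the dashed line the 50% cut between the kinds; all but 3 of the 128 points lie below 10% or above 80%, and the 15 points of control 2 all lie at the bottom.

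Depth differed between the kinds in control 1, but the kinds overlapped. There most embryonic-rich members were shallow and only just past the limit, with medians of 1627 UMIs, 577 genes and 36.0% globin (31.0 to 76.4%). The 15 adult-rich members had medians of 12476 UMIs, 680 genes and 88.3% globin. Embryonic-rich members with 6622 and 8209 UMIs and an adult-rich member with 1493 UMIs and 36.2% globin were exceptions. In control 2 the 15 adult-rich members had medians of 9163 UMIs, 624 genes and 86.9% globin. In the mutant the depths were alike, with medians of 7299.5 UMIs, 1370.5 genes and 49.0% globin in embryonic-rich members and 7373 UMIs, 1285 genes and 57.1% globin in adult-rich members. Adult-rich members of the mutant therefore carried a larger share of non-globin RNA than those of either control. Thinned to 500 non-globin UMIs, with no member left out, they detected a median of 328 genes (1285 unthinned). The adult-rich members of control 1 and control 2 then detected 321 and 318 (680 and 624 unthinned). The number of genes was thus alike when non-globin UMIs alone were matched. Thinned to 1000 UMIs of all genes, the medians were 301 genes in the mutant against 102 and 110 in control 1 and control 2. At the limit itself, the nearest members had 31.0%, 31.0% and 31.1% globin in control 1, control 2 and the mutant, and the nearest barcodes outside had 29.0%, 29.96% and 29.9%.

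Hbb-y was the main embryonic β-like transcript. It made up 22.3% of all UMIs summed over the embryonic-rich members of control 1 and 24.98% over those of the mutant, against 0.391% and 0.173% for Hbb-bh1. Adult-rich members held 55 Hbb-y UMIs of 177911 in control 1, while those of control 2 held 12 of 134407 and those of the mutant 10 of 317851. Those of control 2 also held 19 Hbb-bh1 UMIs, more than of Hbb-y, and the others none. The other kept barcodes, in which globin made up 0.381%, 0.121% and 0.155% of UMIs, had a mixture of both kinds of transcript, and their embryonic share of β-like UMIs was 31.7%, 13.9% and 17.3%.

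Hba-x, the embryonic α-like gene, was not used to part the kinds and followed the same line. Its share of α-like UMIs in embryonic-rich members had a median of 21.9% in control 1 (7.45 to 53.1% over 45 barcodes) and 11.1% in the mutant (2.95 to 19.5% over 12). In adult-rich members the highest share was 0.04%, 0.02% and 0.04% in control 1, control 2 and the mutant. No embryonic-rich member overlapped an adult-rich member. Most α-globin in the embryonic-rich members was nonetheless adult, with 6373 Hba-a1 and 3888 Hba-a2 UMIs beside 2520 of Hba-x in control 1, and 10116 and 5681 beside 2236 in the mutant. Across the 45 embryonic-rich members of control 1 the embryonic β share and the Hba-x share rose together (Spearman's rho 0.56), and across the 12 of the mutant the value was 0.27. Barcodes of a library share its depth and free RNA, and these values are descriptions.

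Within the adult genes, the 2 kinds divided their counts differently. Hbb-bt gave a median of 26.7%, 24.5% and 26.2% of Hbb-bs plus Hbb-bt UMIs in the adult-rich members of control 1, control 2 and the mutant, while the medians were 41.2% and 52.9% in the embryonic-rich members of control 1 and the mutant. In the mutant the embryonic-rich members (36.7 to 98.3%) did not overlap the adult-rich members (15.6 to 36.3%). In control 1 they did, with 18.6 to 78.8% against 21.9 to 33.1%, and these shares rest on few UMIs, 1567 of Hbb-bs and 1308 of Hbb-bt over the 45 barcodes. Hba-a2 gave a median of 43.9% of Hba-a1 plus Hba-a2 UMIs in adult-rich members of control 1 and 45.2% in those of the mutant, but 23.7% in control 2. The 15 members of control 2 (18.8 to 25.9%) did not overlap the 41 of the mutant (37.6 to 51.0%), while 1 of the 15 members of control 1 lay below them at 14.1%. The other kept barcodes of control 2 had the same low share, 26.2% of 13392 UMIs, against 43.4% and 45.3% in control 1 and the mutant, so the low share was found in the members and in the other barcodes of control 2 alike.

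The split between these pairs is uncertain. Of all 90-base stretches of the Hba-a1 transcript 58.9% also occur in Hba-a2, and 63.3% of those of Hbb-bs occur in Hbb-bt (55% and 20.5% of the last 200 stretches, nearest the 3′ end), while Hbb-y shares none with Hbb-bs and Hba-x none with Hba-a1. Reads from a shared stretch cannot be given to 1 gene, and their treatment in the counting was not tested. Summed, Hba-a1 and Hba-a2 made up 41.8%, 38.3% and 23.5% of all UMIs in adult-rich members of control 1, control 2 and the mutant, and Hbb-bs and Hbb-bt 45.9%, 36.3% and 31.1%. The α-like to β-like ratio over these members was 0.910, 1.06 and 0.755.

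**Figure D2:**
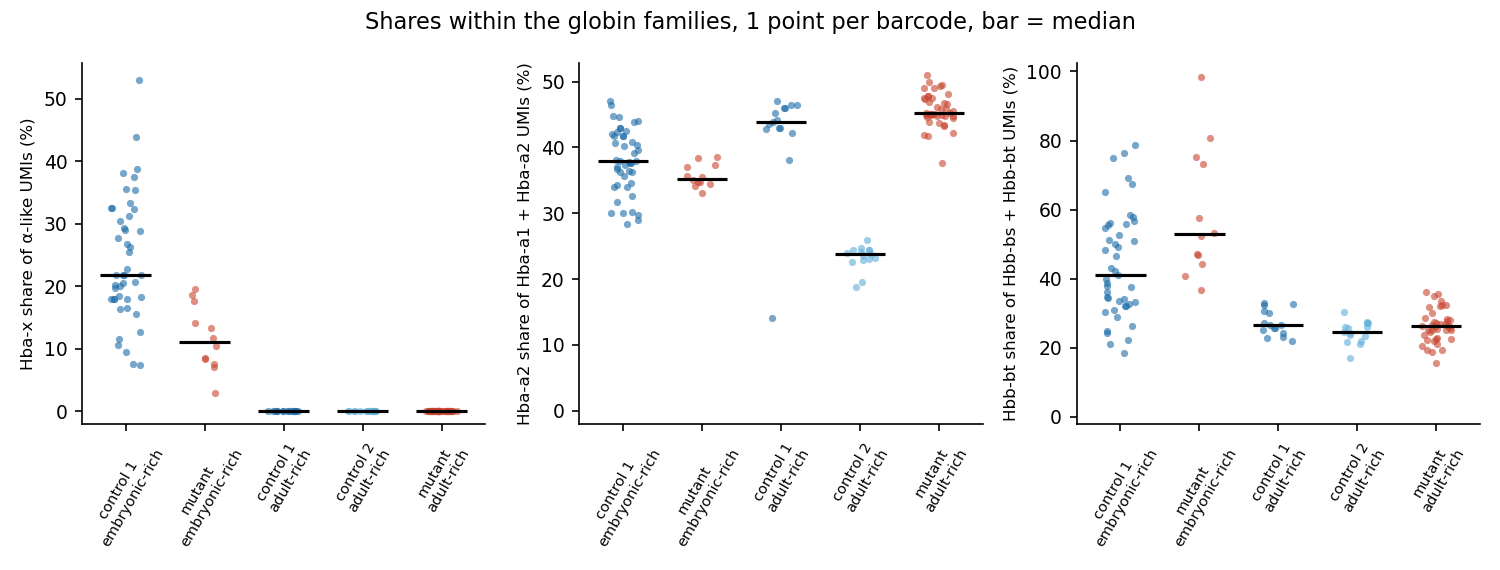
Share of Hba-x among α-like UMIs, of Hba-a2 among Hba-a1 plus Hba-a2 UMIs and of Hbb-bt among Hbb-bs plus Hbb-bt UMIs (vertical axes, %), 1 point per member barcode by library and kind, with a bar at the median. Hba-x was near 0 in all adult-rich members, control 2 had the lowest Hba-a2 median (23.7%), and Hbb-bt had its highest medians in the embryonic-rich members (41.2% and 52.9%).

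Beyond the globins, the members carried the transcripts of late red cells. All further levels are UMIs per 1000000 non-globin UMIs (UPM), summed over the barcodes of a library, since globin takes a large and unequal share of the total. Of 1873 genes with at least 20 UMIs in the members and at least 1 in each library, 45 were at least 4-fold above the other kept barcodes in every library, or 2.4%. Because the class was chosen from the counts of these same barcodes, this is a description and no test. Among the 20 genes with the largest ratios were Alas2, Slc4a1, Trim10, Car2, Rec114, Ube2l6, Slc25a37, Mkrn1, Rhd, Tent5c, Bpgm, Fech, Mt1, Blvrb, Mt2, Fam210b and Dhrs11. They include the anion exchanger of the red cell membrane, the first and last enzymes of heme synthesis (Alas2 and Fech) and the metallothioneins Mt1 and Mt2. By list, 6 of the 9 measured genes of terminal maturation were among the 45, with 4 of 8 of heme synthesis, 4 of 7 of the membrane and skeleton, 3 of 4 of transport and metabolism, 3 of 9 redox and chaperone genes and 2 of 5 iron genes. None of the 5 cell cycle or 10 mesenchyme genes measured was among them.

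Red cell transcripts other than globin marked the adult-rich members more than the embryonic-rich members of control 1. Alas2, the erythroid enzyme of the first step of heme synthesis, had 214, 104 and 186 UMIs in the adult-rich members of control 1, control 2 and the mutant, or 9757, 3056 and 1290 UPM. At least 1 Alas2 UMI was found in 14 of 15, 13 of 15 and 40 of 41 of these barcodes. Of the 45 embryonic-rich members of control 1 only 3 had one, or 6.67% (exact interval 1.40 to 18.3), beside 3.69% of the 2057 other kept barcodes of that library, which were deeper. Per non-globin UMI the level of these members was 58.3 UPM (12.02 to 170.3), above the 3.78 of the other barcodes. Of the 12 embryonic-rich members of the mutant 9 had one, or 75% (42.8 to 94.5), against 0.51% of the other kept barcodes. These shares depend on depth. Thinned to 500 non-globin UMIs, 1 of these 12 and 2 of the 45 of control 1 had one. Adult-rich members then had one in 14 of 15, 9 of 15 and 21 of 41 in control 1, control 2 and the mutant. Slc4a1, the band 3 anion exchanger, had 8, 16 and 16 UMIs in the adult-rich members of control 1, control 2 and the mutant, and 1 and 4 in the embryonic-rich members of control 1 and the mutant. Globins apart, the 45 embryonic-rich barcodes of control 1 thus held few red cell transcripts at a median of 1047 non-globin UMIs, against 8336 in the control 1 barcodes with under 10% globin.

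Transcripts of the surrounding tissue were present in most members. At least 1 UMI of the 12 mesenchyme genes (Prrx1, Twist1, Twist2, Pdgfra, Msx1, Runx2, Col1a1, Col1a2, Col3a1, Dcn, Postn and Lum) was found in 56 of 60, 12 of 15 and 48 of 53 members of control 1, control 2 and the mutant, with a median of 3, 4 and 12 UMIs. In adult-rich members their summed level was 1961 (1419 to 2641), 3527 (2924 to 4217) and 3870 (3556 to 4205), against 4083, 4370 and 4572 in the other kept barcodes. Col1a1 was the most abundant of them in adult-rich members, with 12, 39 and 175 UMIs. Pdgfra and Runx2 were at 0 in the adult-rich members of control 1, Twist2 and Msx1 in those of control 2 and Msx1 in those of the mutant. In the mutant embryonic-rich members the level was 4926 (4344 to 5564), near that of the other barcodes, while in those of control 1 it was 2448 (2039 to 2914). Values without the members that held 3 or more of these UMIs are given with the comparison of the genotypes. Macrophage genes were also found, with a summed level of 821, 147 and 340 in the adult-rich members and 505 and 57 in the embryonic-rich members of control 1 and the mutant. Their most abundant gene was Lyz2 in the adult-rich members of control 1 (12 of 18 UMIs), and Adgre1, the F4/80 marker, was at 0 in all members. A single adult-rich member of control 1 held 14 macrophage UMIs and 1 of the mutant 46. Muscle genes, led by Mylpf, were found in 45 of 60, 3 of 15 and 5 of 53 members of control 1, control 2 and the mutant, at 1144 UPM (913 to 1417), 147 (47.7 to 343) and 40.7 (17.6 to 80.1), against 927, 272 and 93.3 in the other barcodes. Epithelial genes, led by Krt14, were found in 26 of 60, 4 of 15 and 2 of 53 members, at 477, 147 and 132 UPM against 529, 439.6 and 251. Both lists thus stood highest in control 1, among members and other barcodes alike, and their part in the results was not tested. Neutrophil genes, led by S100a8, gave 850 UPM in the other barcodes of control 1, 117 and 182 in its embryonic-rich and adult-rich members, and 0 UMIs in the members of control 2 and the mutant.

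Tgfbr1, the deleted gene, was at 2, 0 and 8 UMIs in the members of control 1, control 2 and the mutant, too few for a comparison. In the other kept barcodes its level was 55.9, 60.03 and 53.3 UPM. The 3′ reads of this chemistry come from the end of the transcript and can lie outside the deleted part, so these levels do not check the labels. Osr2, whose promoter drives Cre, was at 123, 323 and 117 UPM in the members and 174, 230 and 80.2 in the other barcodes, and in each library both levels were of the same order. Xist, a sex-linked gene, was at 97.1 UPM (31.5 to 227, 5 UMIs) in embryonic-rich members of control 1. The adult-rich members there had 0 UMIs (upper limit 168), and the other barcodes were at 4.71. Below the gene limit, embryonic-rich barcodes of control 1 were at 180 (86.2 to 330) and adult-rich ones at 20.5 (5.59 to 52.5). Members of control 2 and the mutant had none. In control 1 Ddx3y, also sex-linked, was at 58.3 in embryonic-rich members and 91.3 in other barcodes.

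**Figure D3:**
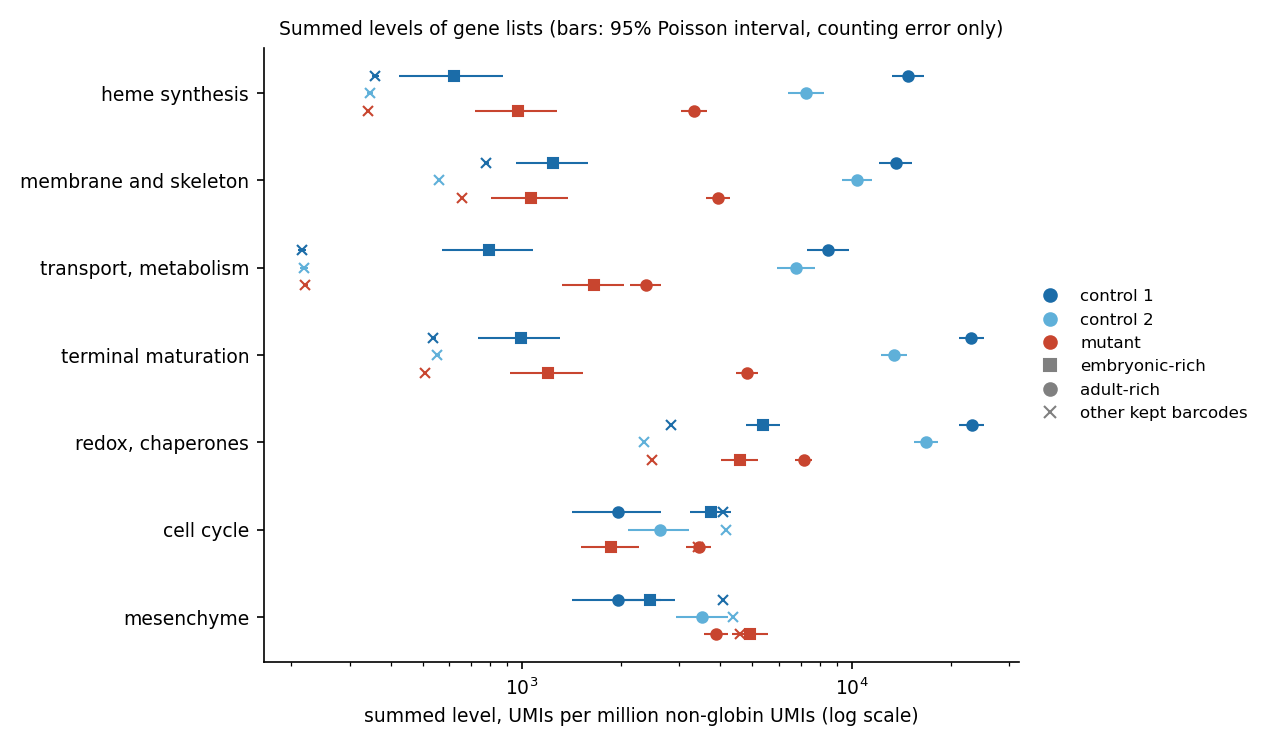
Summed levels of 7 gene lists (UMIs per 1000000 non-globin UMIs, horizontal log axis) in embryonic-rich members (squares), adult-rich members (circles) and the other kept barcodes (crosses) of each library; control 2 had no embryonic-rich member. Bars are exact 95% Poisson intervals for counting error. Adult-rich members stood highest for the first 5 lists, with the mutant below both controls, and mesenchyme genes were at 1961 to 3870 in adult-rich members against 4083 to 4572 in the other barcodes.

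Heme synthesis and terminal maturation genes stood lower in embryonic-rich than in adult-rich members. Whether the kinds of control 1 came from the same embryos was not tested. For heme genes, adult-rich members of control 1, control 2 and the mutant had summed levels of 14818, 7288 and 3322, whereas 622 and 970 were found in the embryonic-rich members of control 1 and the mutant and 342 to 360 in the other barcodes. Over all genes with at least 20 UMIs, 64 of 1733 were at least 2-fold lower in embryonic-rich than in adult-rich members in both control 1 and the mutant, or 3.69%, and 6 were at least 2-fold higher, or 0.346%. Of the lists, 6 of the 8 measured heme genes, 6 of 8 of terminal maturation, 5 of 7 of the membrane and skeleton, 2 of 9 redox genes and 1 of 5 iron genes were among the 64. The cell cycle (6 measured) and mesenchyme (8 measured) lists had none on either side. In this comparison counts under 3 were set to 3, which alone gives a log2 ratio of -1.23 in control 1 when neither kind had more than 3 UMIs, as for Alad, Cpox, Rhd and Cd47. Among the 1512 genes with over 3 UMIs in at least 1 kind in each library, a restriction chosen after seeing the data, 44 were lower and 3 higher, with 4 of 6 heme genes, 6 of 8 of terminal maturation and 3 of 5 of the membrane and skeleton on the lower side. The medians on the log2 scale were -1.70 in control 1 and -1.45 in the mutant for heme genes and -4.37 and -1.52 for terminal maturation genes, beside -0.23 and -0.01 over all genes measured.

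Among the genes named for the lower side were Alas2, Slc25a37, the mitoferrin that brings iron into mitochondria, and Mkrn1, a ubiquitin ligase. Mkrn1 had 7 UMIs in embryonic-rich and 110 in adult-rich members of control 1, or 136 and 5016 UPM, and 10 and 203 UMIs in those of the mutant, or 190 and 1408 UPM. Slc25a37 had 1 and 47 UMIs in control 1, and 2 and 88 in the mutant. The log2 ratios of Alas2 were -7.39 in control 1 and -1.69 in the mutant, where the embryonic-rich levels were 58.3 and 399 UPM. Mkrn1 is in the terminal maturation list together with Ube2l6, a ubiquitin-conjugating enzyme, which was at -4.93 and -1.46.

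A few genes lay on the embryonic side. Hsd3b6, a steroid dehydrogenase, had 17 and 18 UMIs in the embryonic-rich members of control 1 and the mutant against 2 and 3 in the adult-rich members, or 330 and 342 UPM against 91.2 and 20.8. The other kept barcodes were at 0.420 and 0.179, and adult-rich members of control 2 had none. Pdzk1ip1, a small membrane protein gene next to Tal1 in the genome, had 10 and 18 UMIs against 0 and 0. With a count of 0 set to 3 UMIs its level was at least 1.42-fold higher in control 1 and at least 16.5-fold higher in the mutant. Pdzk1ip1 thus missed the 2-fold limit in control 1, and Hsd3b6 passed it in both libraries. Il11ra1, the interleukin 11 receptor α chain, was at 272 and 171 against 91.2 and 27.7, with the 190 and 62.0 of the other barcodes between them. It missed the 2-fold limit in control 1, and the adult-rich members of control 2, at 205.7, lay above the embryonic-rich members of the mutant. Lgals3 and Fbxo2, with 31 and 30 UMIs in the embryonic-rich members of control 1, were at 0 in those of the mutant, and their place among these genes came only from the value set for a count of 0.

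The ferritin chains did not follow the split. Ftl1 and Fth1, which store iron, together made up 2.35% and 3.57% of non-globin UMIs in the embryonic-rich members of control 1 and the mutant, 4.11%, 3.08% and 1.91% in the adult-rich members of control 1, control 2 and the mutant, and 0.596 to 0.611% in the other barcodes. Fth1 was higher in the embryonic-rich members of the mutant (log2 ratio 1.42) and not in those of control 1 (-0.39). Tfrc, the transferrin receptor of iron uptake, was at 0 in all members but for 3 UMIs in the adult-rich members of the mutant.

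Transcripts of early erythroid cells were rare in all members. Kit, Gata2 and Myb, genes of progenitors, were at 0 UMIs in the members of every library. The upper limits for 0 were 50.3, 108 and 18.7 UPM in control 1, control 2 and the mutant. These genes were at 2.52 to 12.6 UPM in the other barcodes, so the depth cannot show a level below theirs. Of the other genes on the progenitor list, the mutant members had 6 UMIs of Cd34, 10 of Runx1, 2 of Epor and 100 of Vim, an intermediate filament gene that mesenchyme also uses. The members of control 1 and control 2 had 1 and 1 of Runx1 and 30 and 21 of Vim, and 0 of Cd34 and Epor. Gata1, the master regulator of the lineage, had 0, 0 and 2 UMIs in the adult-rich members, and Klf1, the activator of adult β-globin, 0, 0 and 14. The Klf1 UMIs of the mutant were held by 2 of its 41 adult-rich barcodes, 1 of which had 8. Rhd, which gives the Rh antigen, had 2, 2 and 20 UMIs and Hemgn, a nuclear protein of the lineage, 0, 1 and 9. Cell cycle genes summed to 1961 (1419 to 2641), 2616 (2101 to 3219) and 3433 (3138 to 3750) UPM in the adult-rich members of control 1, control 2 and the mutant. The other barcodes were at 4065, 4163 and 3414, so that the adult-rich members of the mutant were at the level of their own library and those of the controls lay below it. Embryonic-rich members were at 3749 (3239 to 4317) in control 1 and 1864 (1513 to 2271) in the mutant, the opposite order. Mki67, a marker of cycling cells, had 0, 0 and 12 UMIs, and H2afz, a histone variant, was the most abundant with 26, 60 and 251.

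The mutant was set against the controls with a rule of size, since no test was possible. A gene passed when its level in the mutant was above both controls or below both, and its log2 ratio to their mean was at least 1 in size and exceeded the log2 gap between the controls. Over all members, 107 of 1275 genes with enough UMIs passed on the higher side, or 8.39%, and 32 on the lower side, or 2.51%. Members of control 1 were mostly embryonic-rich and those of control 2 were all adult-rich, so the same rule was also applied to the adult-rich members, a restriction chosen after seeing the data. There 82 of 893 genes passed on the higher side, or 9.18%, and 51 on the lower side, or 5.71%. Against 1 control alone, where no gap enters the rule, 195 and 101 genes of all members passed on the higher and lower side without control 1, and 204 and 55 without control 2. In adult-rich members the numbers were 132 and 71 without control 1, and 205 and 93 without control 2. The 2 analyses had 55 genes in common, 39.6% of the 139 of all members and 41.4% of the 133 of adult-rich members.

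In adult-rich members, genes of late red cells stood lower in the mutant per 1000000 non-globin UMIs. All 7 measured genes of terminal maturation passed the rule on the lower side, as did 3 of 3 of transport and metabolism, 4 of 6 of the membrane and skeleton, 4 of 8 redox and chaperone genes and 2 of 5 heme genes, beside the 5.71% of all genes. On the higher side were 3 of the 8 redox and chaperone genes (Sod1, Txn1 and Hsp90aa1) and 1 of the 5 heme genes (Alad), beside 9.18% of all genes. Over all members fewer passed on the lower side, with 3 of 7 of terminal maturation, 1 of 3 of transport and metabolism, 1 of 7 of the membrane and skeleton (and 1 higher), 1 of 8 redox and chaperone genes and 2 of 8 heme genes, beside 2.51% of all genes. In adult-rich members the medians of these lists, in this order, were -1.97, -1.82, -1.33, -0.64 and -1.10 on the log2 scale, beside 0.29 over all 893 genes. Over all members they were -1.54, -1.28, -1.05, -0.34 and -0.32, beside 0.20 over all 1275 genes. Alas2 was at 9757 UPM in control 1, 3056 in the other control and 1290 in the mutant (log2 ratio -2.08, gap between controls 1.67). Car2, carbonic anhydrase 2, which hydrates carbon dioxide, was at 2827, 3262 and 860 (-1.82, gap 0.21). In both genes the mutant was below both controls. Bpgm, which makes 2,3-bisphosphoglycerate, was at 3511, 1499 and 576. Slc25a37, at 2143, 793 and 610, was lower than both controls but by less than their gap. Malat1 RNA stood higher in these members of the mutant, at 3.22% of non-globin UMIs, against 0.53% and 1.06% in control 1 and control 2. The other mutant barcodes were at 2.66%. Stmn2, on the glia and neuron list, had 1, 0 and 30 UMIs and passed on the higher side. A single mutant barcode held all 40 UMIs of that list. The part of these RNAs in the change was not tested.

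Among the 5 genes with the lowest ratios were Ncoa4, Mt1 and Ube2l6. Ncoa4, the receptor that sends ferritin to degradation, was at 1733, 500 and 153 UPM (log2 ratio -2.61), Mt1, metallothionein 1, at 6794, 3997 and 867 (-2.59), and Ube2l6 at 3556, 1940 and 472 (-2.48). Mt1, Ncoa4 and Ube2l6 were also among the 5 lowest over all members, with Tfdp2, a cell cycle transcription factor partner, at 450, 470 and 107 (-2.11).

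This lower level depended on the denominator. Counted per 1000000 globin UMIs, a scale added after seeing the data, none of these 7 terminal maturation genes and none of the 3 transport genes passed the rule, and their medians were -0.05 and 0.11. Of the other lists, 2 of 5 heme genes, 2 of 6 of the membrane and skeleton and 4 of 8 redox and chaperone genes passed on the higher side, with medians of 0.83, 0.60 and 1.29, and none on the lower side. In the adult-rich members of control 1, control 2 and the mutant, in this order, Alas2 was at 1372, 1036 and 1071 (log2 ratio -0.15), Bpgm at 494, 508 and 478 (-0.07), Ube2l6 at 500.1, 658 and 392 (-0.55) and Mkrn1 at 705, 976 and 1169 (0.49). The mutant lay between the controls for Alas2, below both for Bpgm and Ube2l6 and above both for Mkrn1. On this scale the median over all 893 genes was 2.22, with 665 genes past the rule on the higher side and 0 on the lower side. Per 1000000 UMIs of all genes the median was 1.65, with 513 higher and 4 lower. In the 349 adult-rich barcodes of the mutant with under 500 genes, heme genes summed to 15622 per 1000000 non-globin UMIs and terminal maturation genes to 27077, against 16366 and 33323 in the 184 of control 2, and 4911 and 6388 in the 472 of control 1. A gain of non-erythroid RNA in the mutant barcodes and a loss of red cell transcripts relative to other RNA cannot be told apart per 1000000 non-globin UMIs.

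**Figure D4:**
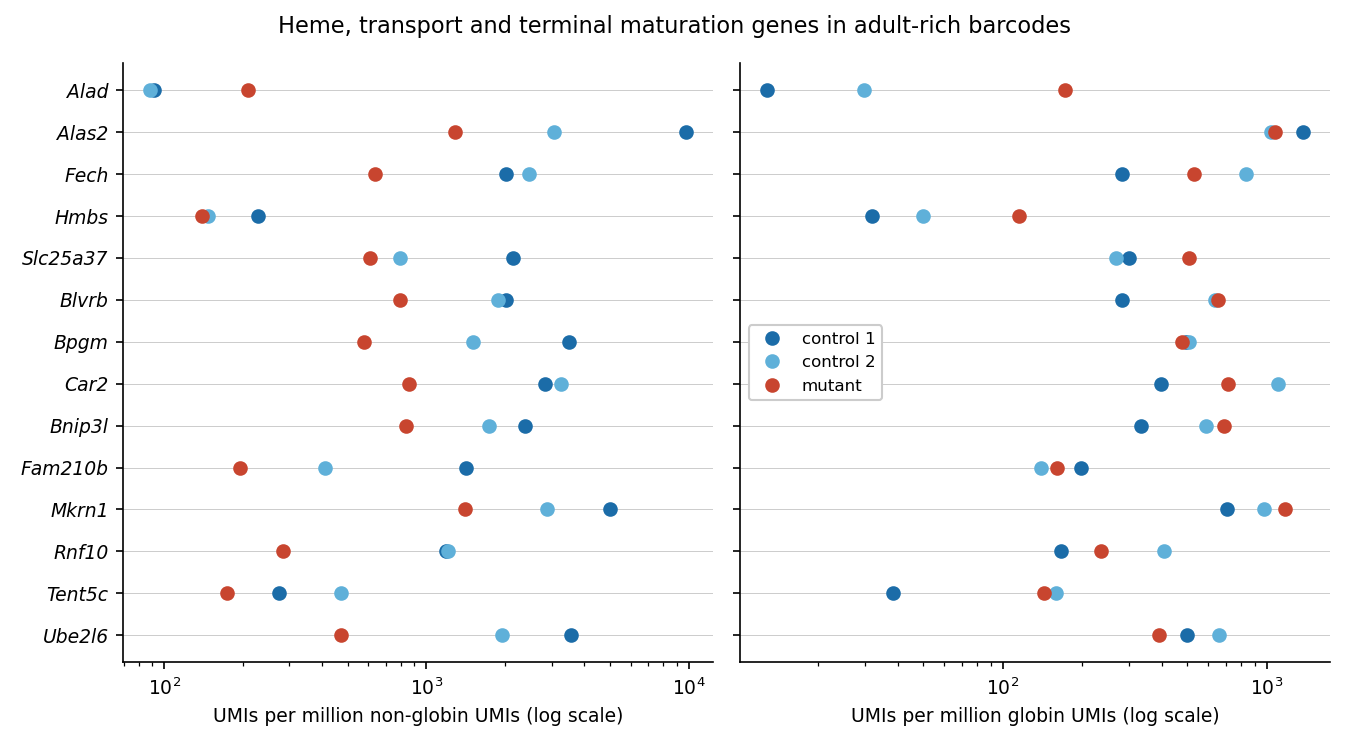
Levels of measured genes of heme synthesis, transport and metabolism, and terminal maturation in the adult-rich members of each library, per 1000000 non-globin UMIs (left, log axis) and per 1000000 globin UMIs (right, log axis), 1 point per library. On the left all transport and terminal maturation genes drawn are lowest in the mutant, and on the right none of them passes the rule on either side.

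The genes with the highest ratios had few UMIs in the controls. In adult-rich members they were Mef2c, Junb, Prrx1, Sod1 and Col12a1, and over all members Thoc2, Zeb2, Col12a1, Ssbp3 and Mef2c. Only in the mutant did these genes reach the minimum of 20 UMIs. Its members held 196751 non-globin UMIs, against 73406 in control 1 and 34027 in control 2. The minimum thus favored genes that were high in the mutant, and their place at the top is a description only. Prrx1, a transcription factor of the mesenchyme, had 1, 4 and 51 UMIs in adult-rich members of control 1, control 2 and the mutant, or 45.6, 118 and 354 UPM. The other kept barcodes were at 309, 294 and 394, so the mutant members were near the level of the surrounding cells. Mef2c, a transcription factor of muscle and neural crest, had 1, 1 and 36 UMIs, or 45.6 (Poisson interval 1.15 to 254), 29.4 (0.74 to 164) and 250 (175 to 346) UPM, and the other mutant barcodes were at 252. Col12a1, a collagen of dense connective tissue, had 1, 1 and 24 UMIs, and the mutant members, at 166, lay below the 251 of the other mutant barcodes. On the mesenchyme list, 1 of 5 measured genes passed on the higher side in adult-rich members, beside 9.18% of all genes, and 3 of 7 over all members, beside 8.39%. Junb, an immediate early factor, had 1, 3 and 55 UMIs, or 381 UPM in the mutant members against 214 in its other barcodes, and Sod1, superoxide dismutase, 1, 1 and 24, or 166 against 86.3. With so few control UMIs these ratios are coarse, and with counts under 3 set to 3 the higher side held 45 genes in place of 82, and 61 in place of 107 over all members.

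Members with 3 or more mesenchyme UMIs made up 35 of 60, 10 of 15 and 46 of 53 members of control 1, control 2 and the mutant. Without them 25, 5 and 7 members were left, all 7 of the mutant adult-rich, and 15 genes passed on the higher side and 9 on the lower side over all members, 19 and 14 over adult-rich members. Thoc2, Zeb2, Ssbp3, Mef2c, Prrx1 and Col12a1 then had a log2 ratio below 0 in at least 1 of the analyses. Mt1 lay above 0. Before this restriction, adult-rich members of the controls held 1 and 1 UMIs of Mef2c and Col12a1 and 1 and 4 of Prrx1. Over all members Thoc2 had 1 and 1, Zeb2 2 and 1 and Ssbp3 3 and 1. Where 3 UMIs stood in for a count of 0, the sign of genes this scarce can come from that value. No fall is concluded for them. Prrx1 is itself one of the 12 genes by which these members were left out, so its lower ratio is built into this restriction, and 46 of the 53 mutant members were lost to it.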

How the data were processed

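Single cells were captured with the 10x Genomics 3′ v2 chemistry. The authors deposited raw UMI counts per gene and barcode, 1 matrix for each library, without normalization. Per the file headers and the paper's methods the counts were made with Cell Ranger 4.0.0, while the submitters' processing notes name version 3.1.0 and the build mm10. Of the 32285 genes in the files, 32158 were matched by identifier to GENCODE annotation of GRCm38. The members and the gene lists were chosen with earlier results of these data known.

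Counts were summed over barcodes with scipy 1.17.1, pandas 2.3.3 and numpy 2.4.6 under Python 3.11.15. Intervals were exact Poisson (levels) or Clopper-Pearson (shares) at 95%. PCR copies are removed by the UMIs. Genes were named as follows: the 20 highest by the lowest ratio over the libraries against other barcodes, and 5 on each side of the other contrasts, among genes with at least 20 UMIs. For logarithms, 3 UMIs stood in for a count of 0, and for any count under 3 between the kinds of member. Doublets were scored by Scrublet in scanpy 1.11.5, whose own threshold called 1, 0 and 0 barcodes and had not worked, so no barcode was left out in the results given. Motif and promoter searches covered the 120 bases before each RefSeq start. Alternatives were limits of 200 genes, 20% and 50% globin, no mitochondrial limit, other denominators and low-count settings, and each control left out. A few genes named by these rules are not reported here, though counts and list values include them.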

Additional observations from a re-analysis of the deposited data

Results flagged for a closer look

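Many barcodes passed the globin limit but not the limit of 500 detected genes, so they were not members. Control 1 held 556, control 2 held 207 and the mutant held 493 barcodes with at least 30% globin UMIs and under 500 genes, against 60, 15 and 53 members. In control 1, 541 of them had at least 200 genes, with a median of 693 UMIs and 39.3% globin. In control 2 and the mutant most had under 200 genes, 136 and 429, with a median of 93.4% and 94.3% globin. Of these barcodes 84, 23 and 144 were embryonic-rich, so control 2, which had no embryonic-rich member, held them below the limit. Ferritin made up 6.43%, 15.9% and 15.9% of their non-globin UMIs in control 1, control 2 and the mutant. The share of Hba-a2 was low in control 2 here too, 23.4% in adult-rich barcodes against 34.0% in control 1 and 46.6% in the mutant.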

How the results depend on the processing

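With a minimum of 200 genes in place of 500, members were 21.7%, 2.20% and 1.42% of kept barcodes in control 1, control 2 and the mutant, of which 21.1% were embryonic-rich in control 1 and 36.8% in the mutant. The embryonic share of β-like UMIs of control 2 was then 10.7%, and 14 genes of all members and 19 of adult-rich members passed on the lower side. With a globin limit of 50%, members were 0.756% in control 1, of which 12.5% were embryonic-rich, and 0.419% in the mutant, and Ssbp3 lay at -0.062. Without members with 3 or more mesenchyme UMIs, members were 1.18%, 0.131% and 0.0863%, 0% of those of the mutant were embryonic-rich, 15 and 9 genes passed on the higher and lower side over all members, and 19 and 14 over adult-rich members. Over all members Thoc2 then lay at -1.50, Zeb2 at -0.50, Ssbp3 at -2.29, Mef2c at -1.66 and Mt1 at 0.69, and over adult-rich members Mef2c at -2.10, Prrx1 at -0.72, Col12a1 at -0.72 and Mt1 at 0.021. Apart from Mt1, these genes had few control UMIs even before members were left out. With 3 UMIs standing in for a count of 0, their sign can come from that value. As a mean over barcodes the embryonic share of control 1 was 65.5%, since its shallow barcodes then weigh as much as deep ones.

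Genes past the rule on the higher and lower side of all members were 552 and 5 per 1000000 UMIs of all genes, 911 and 1 per 1000000 globin UMIs, and 220 and 92 with a minimum of 10 UMIs. In adult-rich members they were 513 and 4, 665 and 0, and 134 and 112 under the same settings. The median log2 ratio of all genes shifted from 0.20 to 1.04 per 1000000 UMIs of all genes and to 1.51 per 1000000 globin UMIs over all members, and from 0.29 to 1.65 and 2.22 over adult-rich members. With counts under 3 set to 3, chosen after seeing the data as were the adult-rich restriction and the globin denominator, 61 and 45 genes passed on the higher side. Between the kinds of member, 3 genes in place of 6 were higher in embryonic-rich members when over 3 UMIs were asked of 1 kind in each library, which drops genes that pass by the value set for low counts. Leaving out each control gave 195 to 204 higher and 55 to 101 lower genes of all members, and 132 to 205 and 71 to 93 of adult-rich members. In all, 42 values of these shares and counts moved and 69 stayed near those given, and of the named genes 175 values moved by less than the gap between the controls, 75 by more and 10 changed sign. Except where its construction is given, the cause was not tested. No member was among the highest Scrublet scores, but the threshold of Scrublet had not worked and doublets among the members were not excluded. Median scores of members were 0.037, 0.090 and 0.056 in control 1, control 2 and the mutant. Those of the other barcodes were 0.049, 0.052 and 0.048. Depth limits all of these values: control 2 held 34027 and control 1 73406 non-globin UMIs in members, against 196751 in the mutant.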
